A study of Mus musculus with 58 samples.

Results

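The 9 genes described here encode subunits of the receptors for GABA, the main inhibitory transmitter of the brain: Gabra2, Gabra3, Gabra4 and Gabra5 (alpha subunits of the GABA-A receptor), Gabrb1 and Gabrb2 (beta subunits), Gabrd (the delta subunit), and Gabbr1 and Gabbr2 (both subunits of the GABA-B receptor). They were taken by name from the 25648 genes of a count table of single neurons, and other GABA-A alpha, beta and gamma genes are covered only where named. The neurons were PV cells of the ventral subiculum, an output region of the hippocampal formation. All came from PV-Cre::Ai9 mice, in which Cre is driven by the parvalbumin gene and switches on the red Ai9 reporter, so cells of any type that used that gene at some earlier time can carry the label. The cytosol of each neuron was drawn into a patch pipette and made into a library with a Nextera XT kit. Of 58 cells, 29 were from 3 female animals and 29 from 4 male animals, and 54 passed the submitters' quality control, 27 of each sex. The female cells that passed were taken at postnatal day 40 (17 cells) or 42 (10 cells), and the male cells at day 35 (14 cells) or 36 (13 cells). Sex and age therefore cannot be told apart. Which animal a cell came from is not in the labels, and cells were therefore not treated as replicates in any test of the sexes.

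GABA-A receptors are chloride channels, pentamers in which alpha and beta subunits form the sites that bind GABA. A gamma subunit places most of them at synapses, and the delta subunit takes its place in receptors outside synapses that carry a steady, tonic current. GABA-B receptors are G-protein-coupled receptors and need both of their subunits: the Gabbr1 protein binds GABA, and the Gabbr2 protein brings the pair to the surface and couples it to the G protein. Parvalbumin interneurons of the hippocampus are fast-spiking cells that inhibit other neurons around the cell body, and they carry delta-containing receptors themselves.

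The 54 cells had 2.05 to 52.3 M counts each, with a median of 11.5 M, and 11591 to 14351 genes with at least 1 count. Gad1, which makes GABA, had 1337 to 6751 CPM (counts per 1000000 counts of the cell) with a median of 3560 CPM, and exceeded Slc17a7, which loads glutamate into the vesicles of excitatory neurons, in 54 of 54 cells. Pvalb, the gene of parvalbumin, reached 10 CPM in 47 cells, with a lowest value of 1.18, a median of 86.9 and a highest of 788 CPM. It exceeded Sst, the gene of somatostatin, in 40 of 54 cells (74.1%, exact 95% interval 60.3 to 85.04%), so 14 cells went against the parvalbumin label on that measure. Slc17a7 had a median of 9.07 CPM and a highest value of 428 CPM, and the 5 cells in which it was highest, at 319 to 428 CPM, were all male. Female cell 3 held 22.8% of the counts of the female day 40 cells. The exact intervals given here are binomial over the 54 cells. They take each cell as an independent draw, leave out differences between animals and may be too narrow. The libraries carried no molecular identifiers in the labels' protocols.

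Each of the 9 subunit genes had at least 1 count in all 54 cells. That was also true of 52.4% of the 14933 genes that passed the filter on low counts. Gabrd and Gabbr1 reached 10 CPM in all 54 cells, as did 12.4% of those genes, and Gabbr2 reached it in 53. Gabra4 and Gabrb1 reached it in 50 cells each, Gabra3 and Gabrb2 in 47 each, Gabra2 in 39 and Gabra5 in 23 (42.6%, exact 95% interval 29.2 to 56.8%). Gabra5 and Gabra2 were thus the genes most often low. Below 1 CPM stood 11 cells for Gabra5, 4 for Gabra2 and 4 for Gabra3, but 0 for the other 6 genes.

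To compare genes, CPM was divided by the merged exon length in kilobases. On this per-kilobase scale Gabrd was highest, with a median over cells of 69.2 CPM per kb. Gabbr2 followed at 24.2 and Gabra4 at 22.7 CPM per kb, then Gabbr1 at 14.1, Gabrb2 at 9.20 and Gabra3 at 8.76 CPM per kb. Gabra2 at 3.94, Gabrb1 at 3.64 and Gabra5 at 1.65 CPM per kb closed the order. Gabrd exceeded Gabbr2 in 49 of 54 cells and in all 4 age and sex pools. Several neighbours in the order did not part beyond the spread of the cells: Gabbr2 exceeded Gabra4 in 27 of 54 cells and 2 of 4 pools, Gabrb2 exceeded Gabra3 in 29 cells and 2 pools, Gabra2 exceeded Gabrb1 in 29 cells and 2 pools, and Gabrb1 exceeded Gabra5 in 29 cells and 3 pools. The order also depended on the length used. Per kilobase of coding sequence Gabrd stayed first at 148 CPM per kb, Gabra4 came before Gabbr2 (79.5 against 57.3), and Gabrb1 moved up to place 5 at 35.4 CPM per kb, because its merged exons span 13838 bases and its coding sequence 1422.

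**Figure D1:**
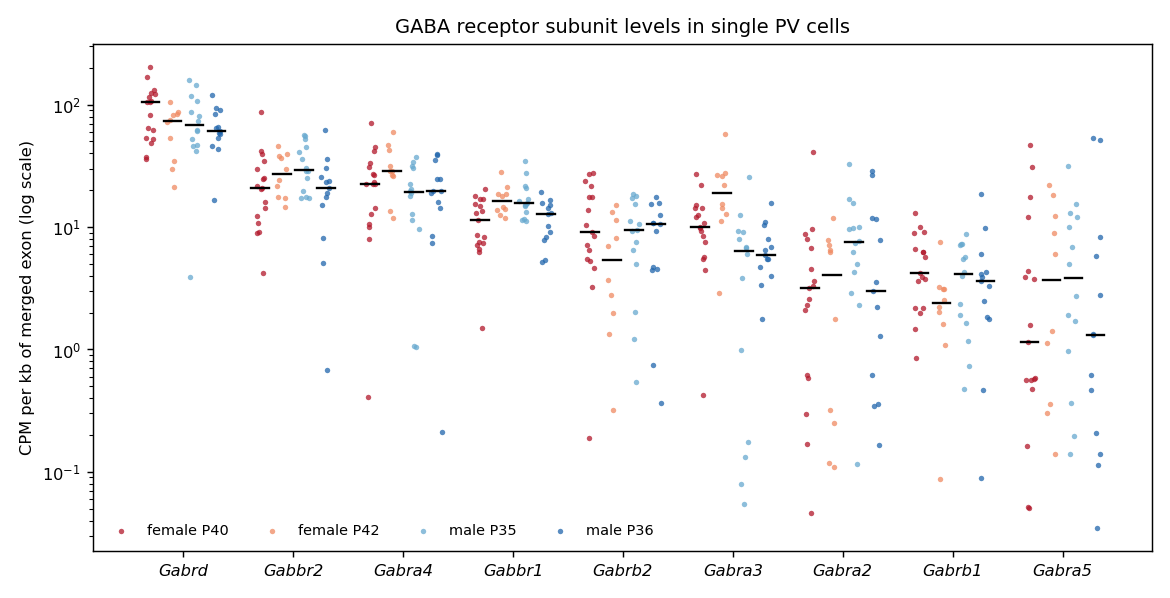
Level of each subunit gene in every cell that passed quality control, in CPM per kilobase of merged exon on a log scale, with 1 point per cell, colours for the 4 age and sex pools and black lines for pool medians. Gabrd is highest in each pool, at pool medians of 60.5 to 105 CPM per kb. Gabra5, Gabra3 and Gabra2 have the widest range, with highest values 1531, 1064 and 890 times the lowest. The quartiles of Gabra3 differed 2.56-fold, less than those of Gabrb1 (3.19-fold) and Gabrb2 (3.25-fold).

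Gabrd, the delta subunit of tonic receptors, was high in nearly every cell. Female cells had medians of 301 CPM at day 40 (103 to 583) and 213 CPM at day 42 (60.5 to 302), and male cells had 195 CPM at day 35 (11.2 to 461) and 174 CPM at day 36 (47.6 to 348). The lowest value, 11.2 CPM, was in male cell 7, and the highest, 583 CPM, in female cell 8. The 4 ranges overlapped. The quartiles of Gabrd over the 54 cells differed 1.997-fold, and its coefficient of variation (SD over mean) was 0.51. Per kilobase it exceeded Gabra4, whose protein is a common partner of delta in the forebrain, in 51 of 54 cells, and in 45 per kilobase of coding sequence.

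Gabra4 was the leading alpha gene of the 4. Its median was 138 CPM in female day 40 cells (2.49 to 435), 173 CPM in female day 42 cells (72.0 to 363), 117 CPM in male day 35 cells (6.42 to 227) and 119 CPM in male day 36 cells (1.28 to 239). Every female day 42 cell was at or above 72.0 CPM, while the other 3 pools each held at least 1 cell under 10 CPM. Those cells were female cell 7 (2.49 CPM), male cell 2 (6.42 CPM), male cell 7 (6.52 CPM) and male cell 16 (1.28 CPM). Per kilobase, Gabra4 was the highest of the 4 alpha genes in 38 of 54 cells (70.4%, exact 95% interval 56.4 to 82.0%), namely 14 of 17 female day 40, 7 of 10 female day 42, 9 of 14 male day 35 and 8 of 13 male day 36 cells. Its share of the summed level of the 4 genes had a median of 55.3% and was over 50% in 33 cells.

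The other 16 cells differed in which alpha gene led. Gabra5, whose protein forms receptors largely outside synapses in the hippocampus, led in 6 cells, with its highest share, 62.4%, in female cell 21. Gabra2, an alpha subunit of synapses and of the axon initial segment of pyramidal cells, led in 5 cells and made up 92.7% of the 4 genes in male cell 2. Gabra3 led in 5 cells, with 87.1% in male cell 16. Male cell 16 had 1.24 CPM of Pvalb and 268 CPM of Sst, against 50.1 and 7.56 CPM in male cell 2. In female cell 7 Gabra4 held 0.431% of the sum, against 43.5% for Gabra2, 32.7% for Gabra5 and 23.4% for Gabra3. Male cells 7, 15, 23 and 29, led by Gabra5, were among the 5 cells of highest Slc17a7 (319 to 428 CPM). Male cell 20, also among those 5, was led by Gabra4 at 53.9%. Female cell 21 had the highest summed astrocyte and microglia markers (1737 and 10939 CPM). Male cell 12, led by Gabra2, had the highest summed oligodendrocyte markers (12822 CPM). The part of other cells' RNA in these shares was not tested. Per kilobase of coding sequence Gabra4 again led in 38 cells, but Gabra2 led in 13, Gabra3 in 2 and Gabra5 in 1, so the order among the minor alpha genes rests on the length used.

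**Figure D2:**
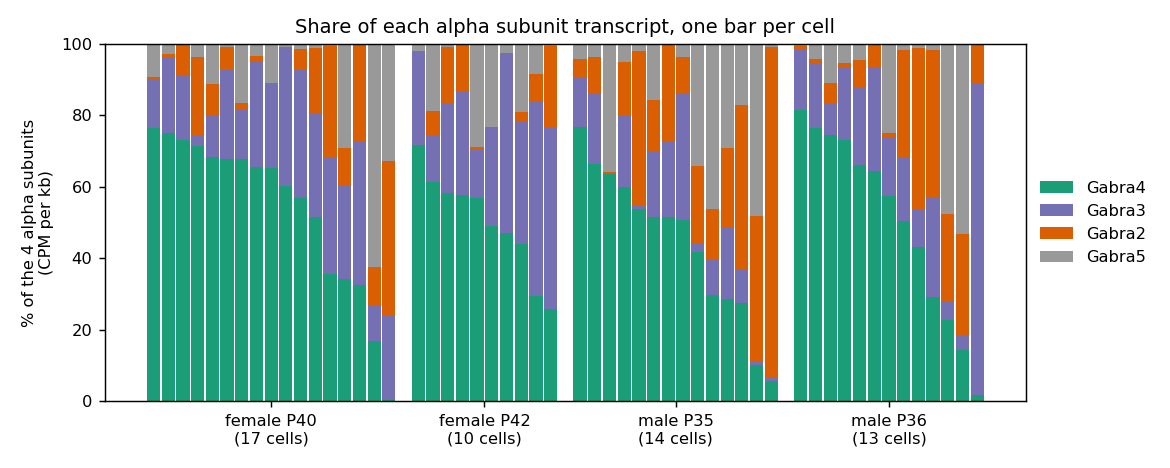
Share of Gabra4, Gabra3, Gabra2 and Gabra5 in their summed level (CPM per kilobase of merged exon) in each of the 54 cells, with 1 bar per cell and cells ordered by the Gabra4 share within each pool. Gabra4 fills over 50% of the bar in 33 cells, and in 16 cells another alpha gene is the largest.

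Most cells used several alpha genes at once. At 10 CPM or more, 14 of 54 cells had all 4 alpha genes, 25 had 3, 13 had 2 and 2 had 1. The pools did not part on this count, since cells with all 4 numbered 4 of 17 among female day 40, 3 of 10 among female day 42, 4 of 14 among male day 35 and 3 of 13 among male day 36 cells.

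Gabra2 and Gabra5 varied most from cell to cell. Gabra2 had medians of 24.1 CPM in female day 40 cells (0.354 to 315) and 30.8 CPM in female day 42 cells (0.830 to 90.9), against 58.1 CPM in male day 35 cells (0.891 to 249) and 22.8 CPM in male day 36 cells (1.27 to 219). Its quartiles differed 10.9-fold, its coefficient of variation was 1.25, and 8 of 54 cells held 50% of its summed CPM. Genes were binned by mean level, 10% of those tested to a bin; in the bin of Gabra2 the median coefficient of variation was 0.66, and 97.4% of the genes lay below Gabra2. Gabra5 had medians of 3.45 CPM in female day 40 cells (0.149 to 139) and 11.03 CPM in female day 42 cells (0.420 to 66.1), against 11.5 CPM in male day 35 cells (0.414 to 94.0) and 3.94 CPM in male day 36 cells (0.104 to 159). Its quartiles differed 21.0-fold, 5 cells held 50% of its summed CPM, and 96.2% of the genes in its bin had a lower coefficient of variation than its 1.64.

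Gabra3 lay between these genes and Gabra4. Its medians were 39.6 CPM in female day 40 cells (1.67 to 106) and 73.9 CPM in female day 42 cells (11.3 to 228), against 25.2 CPM in male day 35 cells (0.214 to 101) and 23.1 CPM in male day 36 cells (6.96 to 62.0). The 5 highest values, 102 to 228 CPM, were all in female cells, and the 4 cells below 1 CPM were all male day 35 cells. Its coefficient of variation, 0.91, exceeded that of 72.8% of the genes in its bin.

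The beta subunits bind GABA together with the alpha subunits and are needed for the channel to assemble. Gabrb2 had medians of 57.8 CPM in female day 40 cells (1.21 to 175) and 33.9 CPM in female day 42 cells (2.05 to 97.2), against 59.9 CPM in male day 35 cells (3.42 to 119) and 67.1 CPM in male day 36 cells (2.32 to 112). Gabrb1 had medians of 58.6 CPM in female day 40 cells (11.8 to 181) and 33.2 CPM in female day 42 cells (1.21 to 104), against 57.5 CPM in male day 35 cells (6.55 to 121) and 50.6 CPM in male day 36 cells (1.24 to 256). Female day 42 cells had the lowest median of both genes, and all ranges overlapped. Both were at 10 CPM or more in 45 of 54 cells, and neither was in 2 cells. Gabrb2 exceeded Gabrb1 per kilobase of merged exon in 41 of 54 cells (75.9%, exact 95% interval 62.4 to 86.5%), but per kilobase of coding sequence in 30.

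Of the GABA-B genes, Gabbr1 was the least variable of all 9 genes. It had medians of 89.3 CPM in female day 40 cells (11.6 to 160) and 127 CPM in female day 42 cells (92.6 to 218), against 122 CPM in male day 35 cells (87.3 to 268) and 99.0 CPM in male day 36 cells (40.2 to 150). Its coefficient of variation was 0.43, and 17.4% of the genes in its bin lay lower. Gabbr2 had medians of 140.5 CPM in female day 40 cells (28.2 to 582) and 182 CPM in female day 42 cells (98.1 to 308), against 197 CPM in male day 35 cells (115 to 378) and 140.6 CPM in male day 36 cells (4.56 to 419). Its coefficient of variation was 0.59, above that of 91.9% of the genes in its bin. Gabbr2 exceeded Gabbr1 per kilobase in 43 of 54 cells, and in 44 per kilobase of coding sequence.

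Genes that work with these receptors were read from 4 lists. Of 9 other GABA-A and GABA-rho subunit genes, 7 had a median of 0 CPM and 2 of those had no count in any of the 54 cells. Gabrg3, a gamma subunit, was the exception at a median of 68.5 CPM and at 10 CPM or more in 52 cells, while Gabrg1 had a median of 0.226 CPM. Among 7 auxiliary subunits and partners of GABA-B receptors the highest medians were 590 CPM for App, the amyloid precursor protein that binds the Gabbr1 protein, 64.3 CPM for Jakmip1, which links the receptor to microtubules, and 41.2 CPM for Kctd8, an auxiliary subunit that shapes the response. The other auxiliary subunits of that family were low: Kctd12 had a median of 0.957 CPM and Kctd16 of 0.0814 CPM, both named after their values were seen. Of the 4 GIRK potassium channel genes through which GABA-B receptors act, Kcnj9 had a median of 56.4 CPM and Kcnj3 of 49.7 CPM, while Kcnj6 had 0.499 CPM. Of 15 genes for assembly, trafficking and clustering, Nsf had a median of 1019 CPM, Gabarapl2 of 286 CPM and Gabarapl1 of 271 CPM. Gphn, the gephyrin gene of inhibitory synapses, had a median of 85.6 CPM and was chosen after its values were seen.

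In the GRCm38 annotation (GENCODE vM21) 3 of the 9 genes lie together on chromosome 5: Gabra2 at 70957597 to 71095849 and Gabra4 at 71569749 to 71658308, both on the minus strand, and Gabrb1 at 71658113 to 72149037 on the plus strand. Gabra4 and Gabrb1 overlap by 196 bases at their 5′ ends, and no source used here gives the strand setting of the counting, so reads from that overlap cannot be told apart. Gabra5 lies on chromosome 7 (57407672 to 57510059), Gabra3 on X (72432681 to 72656848), Gabrb2 on 11 (42419757 to 42629028), Gabbr1 on 17 (37045966 to 37075067), and Gabrd and Gabbr2 on 4 (155384980 to 155398112 and 46662305 to 46991873). Gabra5 also overlaps annotated genes on the opposite strand.

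Over all 54 cells the highest and the lowest rank correlation between subunit genes both involved Gabra4, with Gabra3 and with Gabra2, though neither was so under every setting. The start regions of those 3 alpha genes are shown for that reason, 5′ to 3′ on the gene's own strand, from RefSeq's promoter windows (GRCm38.p6). Bases after any listed start of the same gene and annotated exons were left out. The Gabra4 stretch lies inside Gabrb1, which is on the opposite strand, and after a listed start of Gabrb1. Gabra3 has a pair of RefSeq starts, and the window of the outer one was used. The Gabra2 stretch is chr5:71095850-71096099 (250 bases), the Gabra3 stretch chrX:72656920-72657169 (250 bases) and the Gabra4 stretch chr5:71658364-71658558 (195 bases), all on the minus strand, and capitals mark the motif GGGCGG, the motif TATAAA or the motif CCAAT on either strand.
Gabra2: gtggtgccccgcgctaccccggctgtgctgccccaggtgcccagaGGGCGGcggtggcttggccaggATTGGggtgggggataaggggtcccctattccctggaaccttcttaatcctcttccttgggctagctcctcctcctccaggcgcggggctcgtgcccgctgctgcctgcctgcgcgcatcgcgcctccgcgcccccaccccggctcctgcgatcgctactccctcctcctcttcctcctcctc
Gabra3: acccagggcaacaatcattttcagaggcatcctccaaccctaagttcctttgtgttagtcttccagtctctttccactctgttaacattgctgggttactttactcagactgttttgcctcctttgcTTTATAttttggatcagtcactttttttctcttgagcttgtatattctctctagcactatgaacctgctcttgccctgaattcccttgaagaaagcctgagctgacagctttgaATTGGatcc
Gabra4: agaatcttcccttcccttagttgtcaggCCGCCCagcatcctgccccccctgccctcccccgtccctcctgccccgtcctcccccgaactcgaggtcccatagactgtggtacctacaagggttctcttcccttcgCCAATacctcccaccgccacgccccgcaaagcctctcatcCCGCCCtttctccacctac

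Of the 9 genes, 8 had RefSeq windows, which run from 250 bases before to 50 after a start, 12 windows in all. The Gabra3 stretch held no CG dinucleotide, nor did either of its windows, as for 5.43% of all 32851 windows, while the Gabra4 stretch held 10 and the Gabra2 stretch 18. G and C made up 42.4% of the Gabra3, 63.6% of the Gabra4 and 70.0% of the Gabra2 stretch. GGGCGG, a GC box, matched 2 times in the Gabra4 stretch, 1 time in the Gabra2 stretch and not in the Gabra3 stretch, against at least 1 match in 35.7% of windows, which are longer than the stretches. TATAAA matched 1 time in the Gabra3 stretch and is held by 13.6% of windows, and CCAAT matched in all 3 stretches and is held by 37.4%. The Gabra3 and Gabra4 stretches differed in base composition, and any relation of these sequences to the levels was not tested. CACGTG (7.15% of windows), TGACGTCA (1.79%) and GCGTGGGCG (0.612%) were searched too, on both strands, and matched in 0 of the 12 windows. A match describes letters only.

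Co-expression was described by Spearman's rho of log2(CPM + 1) over the 54 cells, which share library preparation, animals and a range of depths. The 36 pairs of the 9 genes had a median rho of 0.02, with 2 pairs at 0.3 or above and 1 at -0.3 or below. Over 80816541 pairs of 12714 genes the median was 0.01, with 2.35% of pairs at 0.3 or above and 1.52% at -0.3 or below. Most subunit genes thus varied from cell to cell with little relation to each other. The sign was the same in all 4 pools for 9 of the 36 pairs. The share of all gene pairs with this trait is not given here, so nothing is read from that count.

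The highest rho over all cells was 0.52 for Gabra3 with Gabra4. It was 0.26 in female day 40, 0.10 in female day 42, 0.75 in male day 35 and 0.29 in male day 36 cells, and 0.37 after pool means were taken out. Male cells 2 and 7, which were low for both genes (0.518 and 0.311 CPM of Gabra3), lay in the pool with the highest value. Cells with Gabra3 but little Gabra4 also occurred, with 87.1 and 2.49 CPM in female cell 7 and 40.9 and 1.28 CPM in male cell 16. Gabra3 with Gabrb2 had a rho of 0.40, which was 0.65 and 0.44 in the female pools (day 40 and day 42) and 0.77 and 0.31 in the male pools (day 35 and day 36). Within pools it was 0.52, above the 0.37 of Gabra3 with Gabra4, and by Pearson's r it was also the closer pair (0.41 against 0.39), so which of both pairs is closest depends on the measure.

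The lowest rho was -0.34 for Gabra2 with Gabra4, neighbours on chromosome 5 that lie 473899 bases apart. It was -0.64 in female day 40, 0.12 in female day 42, -0.13 in male day 35 and -0.18 in male day 36 cells, so 1 of 4 pools had the opposite sign. Gabra4 with Gabrb1, which overlap at their starts, had a rho of 0.07. Pairs whose proteins work together were weakly related: Gabra4 with Gabrd had 0.12, and Gabbr1 with Gabbr2 had 0.19, with -0.60 in female day 42 cells. In sparse or noisy counts such weak values are no finding.

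**Figure D3:**
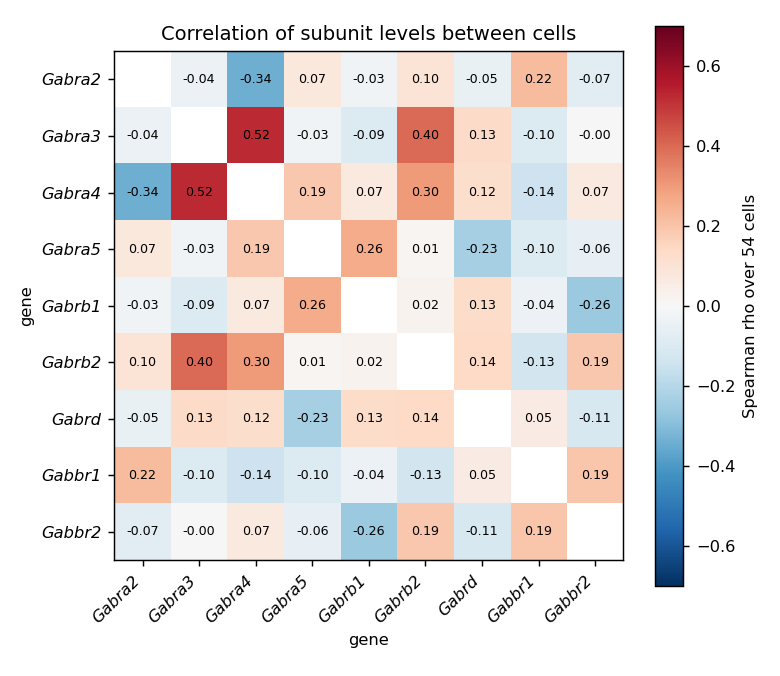
Spearman's rho of log2(CPM + 1) over 54 cells for each pair of the 9 subunit genes, as numbers and colours. Gabra3 with Gabra4 (0.52) and Gabra3 with Gabrb2 (0.40) are highest, Gabra2 with Gabra4 (-0.34) is lowest, and most other pairs lie near 0.

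Likeness to all other genes was ranked the same way among 12713 genes with a count in at least 27 cells. Gabra2 was most like Gap43, which encodes a growth cone protein (rho 0.68). Of all those genes Gad1 had the lowest rho with Gabra2, at -0.62. It was -0.52 in both female pools, -0.61 in male day 35 and -0.49 in male day 36 cells. The 5 cells with the most Gabra2, at 130 to 315 CPM, had 1337 to 2412 CPM of Gad1, all below the median of 3560 CPM. Gabra2 also had a rho of 0.47 with Slc17a7, of 0.49 with the summed level of 9 excitatory neuron genes and of 0.44 with that of 11 genes of other interneurons. Within pools these were 0.31, 0.43 and 0.49. In single pools the rho with Slc17a7 ran from 0.05 (male day 35) to 0.56 (female day 40). With the summed excitatory genes it ran from 0.14 (female day 42) to 0.80 (female day 40). Without the 5 cells of highest Slc17a7 the rho with Gad1 was -0.54, with the summed excitatory genes 0.42 and with Slc17a7 0.40.

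The cells with the most Gabra2 were themselves unlike each other. Female cell 7 had 315 CPM of Gabra2 with 360 CPM of Pvalb and 148 CPM of Slc17a7. Male cell 5 had 249 CPM with 3298 CPM of Sst and 2.49 CPM of Pvalb. Male cells 15 and 29, at 219 and 203 CPM, had 409 and 428 CPM of Slc17a7 and were also the highest for Gabra5, at 159 and 152 CPM. Whether these pipettes held RNA of a second cell was not tested.

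**Figure D4:**
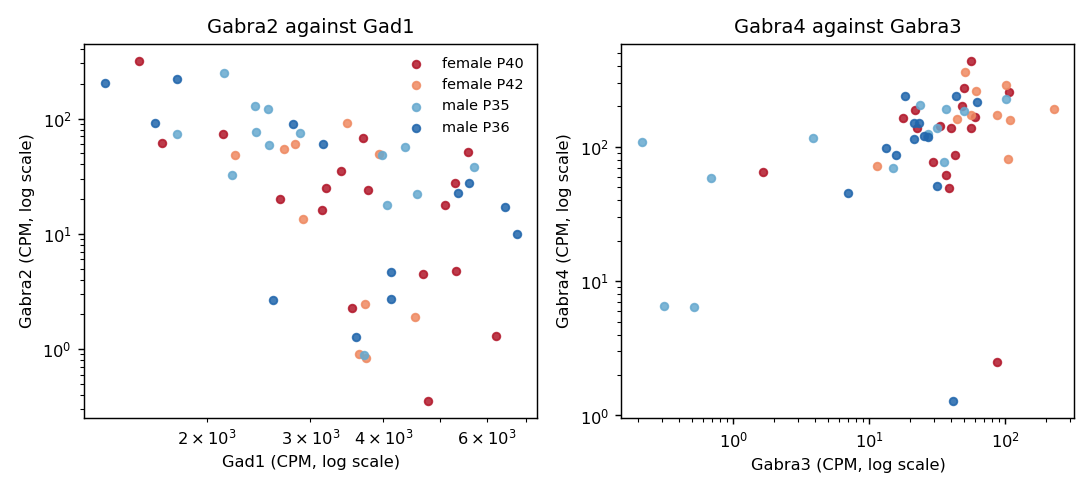
Left, Gabra2 against Gad1 and right, Gabra4 against Gabra3, both in CPM on log scales with 1 point for each of 54 cells, coloured by pool. Cells with over 100 CPM of Gabra2 all have at most 2536 CPM of Gad1, and in the right panel 2 male day 35 cells are low for both genes while 1 female day 40 and 1 male day 36 cell have Gabra3 with little Gabra4.

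For the other genes the most alike were as follows. Here and for Gabra2 each was picked as the highest among 12713 genes, and such a choice gives high values even without a relation. Gabra3 was most like Alas2 (0.58), a haem synthesis gene with a median of 0.249 CPM here, Unc50 (0.53) and Capn2 (0.53), and least like Ddx3y on the Y chromosome (-0.54). Within pools these were 0.38, 0.37, 0.56 and -0.15. Alas2, one of the 5 blood genes listed, had 32.3 and 39.6 CPM in the female pools, against 2.11 and 1.19 CPM in the male pools, while Gabra3 with the summed blood genes had a rho of -0.01. Gabra4 was most like 3110057O12Rik (0.56) and Unc50 (0.56), so Unc50 was listed for both. Unc50 with Gabra4 ran from 0.02 (female day 42) to 0.81 (male day 35) in single pools. With Gabra3 it ran from -0.18 (male day 36) to 0.71 (female day 42). The values of 3110057O12Rik with Gabra4 ran from -0.02 (female day 42) to 0.67 (male day 36). Gabra5 was most like Lclat1, Trank1 and Fam107b (0.52 to 0.57), Gabrb1 like Prrc2a, Sord and B3gnt4 (0.48 to 0.58), and Gabrb2 like Nbas, Mfap3 and Plxdc1 (0.53 to 0.59). Gabrd had the weakest likeness, to Lrrc27 (0.47), Osbpl3 (0.46) and Laptm4b (0.46). Gabbr1 was most like Gm6710, Gm2026 and Nudt21 (0.51 to 0.52), and Gabbr2 like Gnl3l (0.61), the unnamed ENSMUSG00000108348 (0.56) and Cyth3 (0.51). Gabra5 and Gabrd stood on opposite sides of Pvalb, with rho of -0.33 and 0.33. Both values were near 0 in 1 or more pools: Gabra5 had -0.03 with Pvalb in male day 36 cells, and Gabrd had -0.04 in female day 42 cells.

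The labels gave membrane measurements named vrest, rm and cm, without units, each for 49 of the 54 cells and all of them for 47. The closest of the 27 relations computed were those of Gabrb1 with rm (rho 0.30) and with cm (-0.30), and of Gabrd with vrest (0.29). Within pools they were 0.38, -0.23 and 0.38, and Gabrd with vrest was -0.04 in female day 42 cells. All are weak.

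The difference between the sexes was fitted on counts summed into the 4 pools, 2 female and 2 male, with edgeR's quasi-likelihood test over all 14933 genes. None of the 9 subunit genes was called at a Benjamini-Hochberg adjusted p under 0.05, where 2 of all genes (0.0134%) were. At an unadjusted p under 0.05 there were 3 of 9 (Gabra2, Gabra3 and Gabra4), against 5.51% of all genes. In the same 3 genes both pools of a sex lay above both of the other, which was so for 33.9% of all genes (16.5% female higher, 17.3% male higher). DESeq2 called 1 of the 9, Gabra2, and 1.25% of all genes, and limma called 0 of the 9. The pools are independent only if each animal was used at a single age.

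Gabra2 had 26.6 and 31.5 CPM in the female pools, against 66.7 and 62.9 CPM in the male pools (day 40 and 42, day 35 and 36, on TMM-scaled totals, which correct for composition). The male pools lay above the female ones, with a log2 difference, female minus male, of -1.16 ± 0.30 (SE; edgeR p = 0.00533, adjusted p = 0.878), and DESeq2 gave an adjusted p of 0.0492. Medians over cells did not order the pools this way, since male day 36 cells had the lowest median, 22.8 CPM, and 1 cell held 33.0% of that pool's Gabra2 counts. The 5 cells of highest Slc17a7 were all male, and without them the log2 difference was -0.84 ± 0.41 (edgeR p = 0.0745, adjusted p = 0.988). Of the 9 excitatory neuron genes 7 had a negative log2 difference, with a median of -1.53, and their summed level was 36.4 to 662 CPM in female cells (median 128) and 24.9 to 1313 CPM in male cells (median 151). At the median cell 3 of those 9 genes were at 0 CPM. DESeq2, which called Gabra2, also called Slc17a7 and Slc17a6 of that list, and edgeR called 0 of the 9.

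Gabra3 had 39.2 and 77.3 CPM in the female pools, against 26.0 and 29.5 CPM in the male pools. The log2 difference was 1.07 ± 0.40 (edgeR p = 0.0282, adjusted p = 0.887), and without the female day 42 pool it was 0.51. Gabra4 had 165 and 187 CPM in the female pools, against 121 and 116 CPM in the male pools, with a log2 difference of 0.57 ± 0.19 (edgeR p = 0.0198, adjusted p = 0.878). Neither gene passed the adjusted threshold. Without the 5 cells of highest Slc17a7 the differences were 0.93 ± 0.40 for Gabra3 and 0.48 ± 0.21 for Gabra4.

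The other 6 genes had overlapping pools. Gabra5 had 19.4 and 25.0 CPM in the female pools and 23.02 and 28.7 CPM in the male pools, a log2 difference of -0.22 ± 0.42, which was 0.58 ± 0.75 without the 5 cells of highest Slc17a7. Gabrd had 289 and 199 CPM in the female pools and 229 and 196 CPM in the male pools (0.20 ± 0.23). The day 40 pool was the highest for Gabrd. Gabrb1 had 84.7 and 37.5 CPM in the female pools and 52.7 and 72.3 CPM in the male pools (-0.03 ± 0.41). In Gabrb2 the day 42 pool stood lowest, with 80.8 and 33.7 CPM in the female pools and 63.0 and 59.5 CPM in the male pools (-0.10 ± 0.41). The beta genes thus differed more between the female pools than between the sexes. Gabbr1 had 93.3 and 127 CPM in the female pools and 135 and 99.8 CPM in the male pools (-0.09 ± 0.26). Gabbr2 had 241 and 196 CPM in the female pools and 230 and 140.4 CPM in the male pools (0.24 ± 0.26), and female cell 3 held 54.8% of its counts in the day 40 pool. Differences of the size of these standard errors were not detectable with 2 pools a sex.

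**Figure D5:**
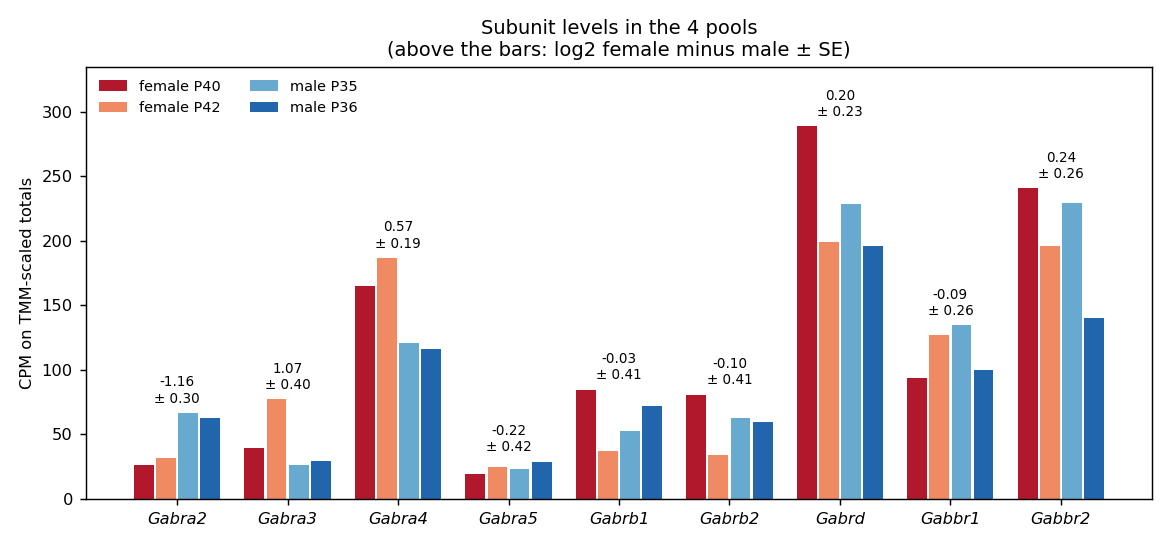
Level of each subunit gene in the female and male pools, in CPM on TMM-scaled totals. Above the bars stand edgeR's log2 difference, female minus male, and a standard error worked back from its F statistic. Only Gabra2 (male higher), Gabra3 and Gabra4 (female higher) have pools that do not overlap, and none of the 9 passes the adjusted threshold.

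As shares of the 4 alpha genes per kilobase, Gabra2 made up 7.38 and 6.56% in the female pools, against 20.3 and 18.5% in the male pools (a difference of -12.4 points). Gabra3 made up 21.2 and 31.3% in the female pools, against 15.4 and 16.9% in the male pools (10.1 points). In contrast to Gabra2, both female shares of Gabra3 lay above both male shares. Gabra4 made up 57.6 and 48.8% in the female pools, against 46.3 and 43.0% in the male pools (8.60 points). Gabra5 made up 13.8 and 13.3% in the female pools, against 18.0 and 21.7% in the male pools (-6.28 points). Gabra4 was thus the largest share in each of the 4 pools. On summed counts the pools of these 4 shares did not overlap between the sexes. The 4 shares add up to the whole, so they are not separate results. The exact two-sided permutation test over 4 pools gave p = 0.33 for each, the smallest p it allows (adjusted p = 0.50 over 6 shares). With each cell weighted equally the Gabra4 shares overlapped. They were 54.1 and 50.2% in the female pools, against 44.2 and 50.4% in the male pools (4.84 points, exact permutation p = 0.667). By medians over cells, the shares of Gabra2, Gabra4 and Gabra5 overlapped between the sexes, and those of Gabra3 did not. The medians of Gabra2 were 8.39 and 4.69% in the female pools, against 18.6 and 7.498% in the male pools. Those of Gabra5 were 3.37 and 5.52%, against 10.4 and 4.17%. A single cell held 50.5% of the Gabra5 counts in the female day 40 pool, and another held 53.9% in the male day 36 pool. Per kilobase of merged exon, Gabrb1 made up 32.5 and 33.8% of both beta genes in the female pools. In the male pools it made up 27.8 and 35.8%. Per kilobase of coding sequence it made up 53.1 and 54.6% in the female pools, against 47.5 and 56.8% in the male pools. Which beta gene had the larger share thus rests on the length used. Gabbr1 made up 25.0 and 35.9% of both GABA-B genes in the female pools and 33.5 and 38.0% in the male pools. These last shares overlapped between the sexes.

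In the lists of partner genes 0 were called by edgeR at the adjusted threshold in either direction: 0 of 3 tested among other GABA-A and GABA-rho subunits, 0 of 7 among GABA-B auxiliary subunits and partners, 0 of 3 among GIRK channels and 0 of 15 among genes for assembly, trafficking and clustering. DESeq2 and limma called 0 of them too, and 1, Jakmip1, had an unadjusted p under 0.05. Jakmip1 had 62.6 and 55.3 CPM in the female pools, against 91.7 and 97.7 CPM in the male pools (log2 difference -0.68 ± 0.24; edgeR adjusted p = 0.887). The 9 subunit genes had a median log2 difference of -0.03, with 4 positive and 5 negative, and all tested genes had a median of 0.00436.

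Marker genes of other cells also had log2 differences, and their part in the values above was not tested. In each list edgeR called 0 genes at the adjusted threshold; at an unadjusted p under 0.05 there were 0 of 8 microglia, 5 of 5 blood, 2 of 8 oligodendrocyte, 3 of 11 other interneuron and 4 of 9 excitatory neuron genes. DESeq2 called Ly6c1 of the endothelial genes, and Sst and Vip of the other interneuron genes, among others, and limma called 0 in each list. All 8 microglia genes had a positive log2 difference (median 1.06), with a summed level of 40.4 to 10939 CPM in female cells (median 240.5) and 40.0 to 2970 CPM in male cells (median 150.4). All 5 blood genes were positive too (median 2.80) and were called by DESeq2, though not by edgeR, at 12.3 to 29770 CPM in female cells (median 84.0) and 3.10 to 4747 CPM in male cells (median 55.2). All 8 oligodendrocyte genes were negative (median -2.33), at 97.4 to 2307 CPM in female cells and 151 to 12822 CPM in male cells, while the medians over cells, 489.6 CPM in female and 477.3 CPM in male cells, lay the other way. Of 11 genes of other interneurons 9 were negative (median -1.01), at 43.8 to 2074 CPM in female cells (median 327.7) and 84.6 to 7378 CPM in male cells (median 362.0). Of the remaining lists, 5 of 8 astrocyte genes, 2 of 4 genes of oligodendrocyte precursors, 1 of 4 tested endothelial genes and 6 of 9 genes of PV interneurons were positive.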

How the data were processed

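The submitters' processing notes name STAR, the GRCm38 build and edgeR, with no versions; no source used here gives the counting tool, its annotation or its strand setting. The count table that the authors deposited holds whole-number counts per gene and cell, not normalized. Its columns all matched a labelled cell (0 unmatched), and 0 pairs of cells had identical counts. The deposited normalized values and the neurexin isoform table were not used.

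CPM used each cell's own total, and lengths came from GENCODE vM21. For the comparison of the sexes, counts over Pass cells were added up within each of the 4 combinations of sex and age. Replicate numbers only name cells. A gene was tested if 10 or more Pass cells had a count of it and it passed filterByExpr. The test was edgeR 4.0.16 (R 4.3.3; TMM, quasi-likelihood F test, two-sided, Benjamini-Hochberg over all tested genes). Its p-values measure the spread between pools only. The standard errors given with edgeR's log2 differences were worked back as the absolute difference over the square root of the F statistic. Alternatives were DESeq2 1.42.0, limma 3.58.1, other scaling and filters, thinning each cell to 2054581 counts, and leaving out cells or pools. Named genes were all 9 subunits, the 3 genes most like each, and up to 3 highest per list. Some genes that this rule names are not reported here. The genes, lists and tests were chosen with earlier results of these data known.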

Additional observations from a re-analysis of the deposited data

Results flagged for a closer look

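In female day 42 cells 2 single values stood apart from the other 9 cells. Gabra3 was 228 CPM in female cell 14, and the next highest was 108 CPM. Gabrb1 was 104 CPM in female cell 18, and the next highest was 44.7 CPM. The gap to the next cell was 0.55 of the whole range for Gabra3 and 0.58 for Gabrb1. For normally distributed values chance flags about 1 in 20 groups in this way. CPM values need not be so distributed, and the rate for them is not known. Both ends of all 9 genes were examined in this pool, the only one with 10 cells or fewer.

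The 4 cells that failed the submitters' quality control were in no comparison, and they carried the same subunit genes. Female cell 6 had more than 3 counts for 8 of the 9 genes and female cell 10 for 9, while male cell 3 and male cell 4 had them for 9 each. They held 0.545 and 5.08 M counts (female cells 6 and 10) and 0.836 and 0.596 M (male cells 3 and 4). Gabrd was 185 to 280 CPM in these cells, Gabra4 82.1 to 191 CPM, Gabbr1 95.9 to 206 CPM and Gabbr2 18.3 to 220 CPM. All their values lay within the range of the cells that passed, except Gabra5 in female cell 6, which had 0 counts, while its lowest value in cells that passed was 0.104 CPM.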

How the results depend on the processing

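The number of genes called by edgeR was 2. It was 111 with no filter on low counts, 186 with DESeq2, and 0 without the 6 cells of highest levels of other cells' markers, and 0 to 21 when each pool was left out in turn (21 without female day 40, 1 without male day 35, 0 without male day 36). The number of subunit genes called was 0, and 1 (Gabra2) with DESeq2; it was 0 with each pool left out. The direction of Gabra2, Gabra3 and Gabra4 held in all 13 alternatives: -1.27 to -0.79, 0.51 to 1.54 and 0.48 to 0.68 in log2. Leaving out each pool gave -1.27 to -1.03 for Gabra2, 0.51 to 1.48 for Gabra3, 0.49 to 0.66 for Gabra4, -0.41 to -0.05 for Gabra5, -0.73 to 0.45 for Gabrb1, -0.85 to 0.41 for Gabrb2, -0.0897 to 0.45 for Gabrd, -0.32 to 0.14 for Gabbr1 and -0.0719 to 0.64 for Gabbr2. The sign turned without female day 42 for Gabrb1 and Gabrb2, without female day 40 for Gabrd and Gabbr1, without male day 35 for Gabbr1 and without male day 36 for Gabrb1 and Gabbr2. Other changes of sign were Gabra5 0.58 and Gabrb1 0.18 without the 5 cells of highest Slc17a7, Gabrb1 0.0298 and Gabbr1 0.0126 without the cells of highest marker levels, Gabrb2 0.0388 and Gabbr2 -0.0648 with thinned cells, and Gabrb2 0.0305 and Gabbr2 -0.14 without female cell 3; the causes were not tested. Both cell removals by marker level and the coding length were chosen after seeing the data. Shares without each pool in turn differed by -13.3 to -11.5 points for Gabra2, 5.04 to 15.2 for Gabra3, 4.197 to 13.01 for Gabra4, -8.12 to -4.43 for Gabra5, -2.66 to 5.39 for Gabrb1 and -10.7 to 0.119 for Gabbr1. With cells weighted equally they were 4.84 for Gabra4 and -0.535 for Gabbr1. Of the correlations under other settings, Pearson's r among them, 381 moved little and 15 moved further. Gabra3 with Gabra4 ranged over 0.37 to 0.61 and Gabra3 with Gabrb2 over 0.30 to 0.58. The second pair was the higher one by rho within pools and without female day 42. It was also higher by Pearson's r, at pseudocounts of 1 and 0.1, while ranks do not depend on the pseudocount. The lowest pair was Gabra4 with Gabbr1 (-0.27) by Pearson's r at pseudocount 0.1. By rho without female day 40 it was Gabrb1 with Gabbr2 (-0.23). No paired analysis was possible because the replicate numbers only name cells and pools of the sexes share none. Each of the 9 genes had a count in every cell that passed, but as few as 1 for Gabra3 and Gabra5, and with 2 pools a sex only large differences can pass.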
